A study of Rattus norvegicus with 38 samples.

Results

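The 132 genes described here differed between the left and the right atrium of healthy rat hearts. They were chosen from 24057 genes by their deposited TPM values (transcript abundance corrected for transcript length and library size) in 4 left and 4 right atrial libraries. A gene was kept when the libraries of one atrium all lay above those of the other, the larger group mean was at least 3 TPM, and the ratio of the means, with 1 TPM added to each, was at least 2. This chose 55 genes that were higher in the left atrium (left-biased) and 77 that were higher in the right atrium (right-biased), or 0.527% and 0.737% of the 10443 genes whose larger healthy atrial mean was at least 3 TPM. The healthy atrial values therefore chose the genes and are given as a description with no test.

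The study profiled 5 regions of hearts from male Sprague-Dawley rats aged 10 weeks: the left atrium (LA), the right atrium (RA), the inferior and superior parts of the sinoatrial node (iSAN and sSAN), which is the tissue where the heartbeat starts, and the left ventricle (LV). Hearts labelled failing and hearts labelled healthy gave 4 libraries each per region, except for the healthy left ventricle with 2. Per the labels' protocols, male pups had the ascending aorta constricted at 1 week of age and had an enlarged left ventricle by 10 weeks. The healthy libraries carry this same text, and no other treatment of the healthy rats is stated. Libraries are called by their titles, such as LA_0409, RA_0920, iSAN0409 and sSAN0409, with SB in place of iSAN and ST in place of sSAN in the healthy node. The number in a title recurs across regions, and values of a group are given in the order of these numbers. They run from LA_0409 through LA_0506 and LA_0507 to LA_0508 in failing hearts and from LA_0920 through LA_0921 and LA_1001 to LA_1002 in healthy hearts, with LV_1001 and LV_1002 alone for the healthy ventricle. Failing and healthy hearts share no number, so that health and any batch that follows the numbers cannot be told apart. Whether a number stands for 1 animal is not stated, and p-values then measure only the spread between these libraries.

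Left and right atria form from mirrored parts of the early heart and keep different transcriptional programmes into adult life. The sinoatrial node lies on the right side of the heart, where it borders right atrial muscle. The signalling protein Bmp10 is known as a product of right atrial muscle. Bmp10 is given as background only, because the files carry Ensembl gene IDs without names and none of the IDs could be paired with a symbol here. For the same reason no marker of heart muscle, node or other cell types could be looked up, so that the labelled tissues were not checked against their markers. A bulk level also cannot tell fewer cells of a type apart from less RNA per cell. At most 2 IDs a side are printed, those with the largest healthy ratios, and the other genes are given as counts and ranges.

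In healthy atria, most of the chosen genes were expressed at a low to moderate level and differed by a modest factor. The mean TPM of the left-biased genes in LA ran from 3.00 through a median of 11.5 to 174, with 24 genes under 10 TPM, 29 from 10 to under 100 and 2 at 100 or more. The right-biased genes had means in RA of 3.39 to 6228 TPM around a median of 13.1, with 27 genes under 10 TPM, 43 from 10 to under 100 and 7 at 100 or more. The right-biased side thus held the more abundant genes. The ratio was under 3 for 37 left-biased and 56 right-biased genes, with medians of 2.45 and 2.38. It reached 5 for 6 left-biased and 9 right-biased genes, and 10 for 3 and 2 genes. Near silence in the opposite atrium was rare: 6 genes of either side had a mean under 0.5 TPM there. Spread between the 4 libraries of the higher atrium was small for most genes, with a median coefficient of variation of 16.5% for left-biased and 17.1% for right-biased genes, although 1 and 4 genes exceeded 50%. The rule leaves out genes whose atria overlap and so favours a small spread.

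The threshold on the ratio did not fall in a gap. Just inside it lay left-biased genes with ratios of 2.01 and 2.02 and right-biased genes with 2.01 and 2.01. Just outside it lay genes with 1.987 and 1.995 on the left and 1.992 and 1.998 on the right. One of those left out on the left was abundant, at a mean of 657 TPM in LA and 330 TPM in RA. The ratio was met by 72 genes on the left and 89 on the right, of which 17 and 12 were left out because libraries of the 2 atria overlapped.

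ENSRNOG00000034290 had the largest ratio on the left side. In healthy LA its TPM was 69.9, 16.4, 32.4 and 34.3, and in healthy RA it was 0 in 3 libraries and 1.58 in RA_1002. The 2 healthy atria did not overlap, as the rule requires, and the LA values spread about 4-fold among themselves (38.3 ± 22.6, SD, n = 4). In failing LA the gene was at 48.3, 50.5, 45.9 and 1.63, while failing RA held 0.549, 4.07, 0 and 0.241. A single failing LA library, LA_0508, fell into the range of the right atrium, and the failing groups overlapped. The difference of failing LA over failing RA was 4.89 ± 1.14 (log2, SE) and did not pass, with an adjusted p of 0.14 in edgeR's quasi-likelihood test with Benjamini-Hochberg adjustment. With DESeq2 the value was 5.02 and the adjusted p 0.02, and in an edgeR fit of all 38 libraries it was 4.88 and 0.001.

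Outside the atria the same left-biased gene was as high as in the left atrium or higher. Healthy iSAN held 18.3, 37.5, 107.6 and 46.4 TPM, healthy sSAN 24.2, 14.8, 58.4 and 53.9, and healthy LV 51.9 and 35.0. These regions overlapped the healthy left atrium and stood above each healthy RA library. Failing iSAN held 170.5, 166.15, 162.5 and 245.3 TPM, above every other library of this gene. ENSRNOG00000034290 was higher in failing iSAN than in failing RA by 6.88 ± 0.71 (adjusted p = 0.00047, edgeR), in failing sSAN by 5.78 ± 0.84 (adjusted p = 0.0043) and in failing LV by 6.66 ± 0.92 (adjusted p = 0.003). Against failing LA it differed by 2.03 ± 0.71 in iSAN (adjusted p = 0.097), 0.91 ± 0.75 in sSAN (adjusted p = 0.53) and 1.75 ± 0.74 in LV (adjusted p = 0.17), none of which passed in edgeR. Without LA_0508, the low library of that group, the iSAN value was 1.63 (adjusted p = 0.0044) and the LV value 1.37 (adjusted p = 0.026). The fit of all 38 libraries also passed both, at adjusted p = 0.037 and 0.043. ENSRNOG00000034290 was 1.76 ± 0.44 higher in failing than in healthy iSAN (adjusted p = 0.014, edgeR).

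ENSRNOG00000010681 was a left atrial gene in a stricter sense, since it was low in every other region sampled. Healthy LA held 13.5, 13.4, 15.5 and 11.9 TPM (13.6 ± 1.45, SD, n = 4) against 0.0648 ± 0.0577 in healthy RA. Failing LA held 7.62, 6.88, 5.14 and 7.84 TPM, and all 4 failing RA libraries were at 0. All failing left atrial libraries were below all healthy ones, and still above every library of the other regions. With a floor of 3 counts per library for the right atrium, the failing LA level was at least 78.7-fold higher, with an adjusted p of 0.00097 in edgeR. Both node parts kept a low level, with means of 2.82 ± 1.06 TPM in healthy iSAN, 1.94 ± 0.200 in failing iSAN, 2.06 ± 0.584 in healthy sSAN and 1.60 ± 0.413 in failing sSAN (SD, n = 4). ENSRNOG00000010681 was lower in failing iSAN than in failing LA by 2.13 on the log2 scale (-2.13 ± 0.23, adjusted p = 0.00088, edgeR) and in failing sSAN likewise (-2.11 ± 0.29, adjusted p = 0.0045). It was still at least 20.02-fold higher in failing iSAN and 18.2-fold higher in failing sSAN than in failing RA (adjusted p = 0.00059 and 0.002, edgeR). In LV the 2 healthy libraries held 0.155 and 0.394 TPM and the failing ones 0.796, 0.608, 0.0267 and 0. The LV to LA difference of -3.36 ± 0.87 passed in edgeR at an adjusted p of 0.041 and was lost, at 0.063 to 0.10, without LA_0409, LA_0506, LA_0507, LA_0508, LV_0409 or LV_0506. In failing against healthy hearts the gene did not pass in iSAN (-0.64 ± 0.32, adjusted p = 0.15), sSAN (-0.51 ± 0.32, adjusted p = 0.30) or LV (0.67 ± 1.42, adjusted p = 0.83). Without SB_0920 the inferior node value was -0.86 at an adjusted p of 0.045.

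The largest ratio of all belonged to the right-biased gene ENSRNOG00000009316, which was abundant in the right atrium and close to absent in the left atrium and the ventricle. Healthy RA held 1974, 1653, 1533 and 1209 TPM (1592 ± 316, SD, n = 4) against 0.194 ± 0.132 in healthy LA. Failing RA held 1349, 1086, 847.9 and 483.2 TPM (941 ± 368) against 0.0723 ± 0.0375 in failing LA, and the 2 failing atria did not overlap. Failing LA was lower than failing RA by 13.6 on the log2 scale (-13.60 ± 0.47, adjusted p = 3.3e-06, edgeR). In the left ventricle the highest of the 6 libraries reached 0.0449 TPM, and failing LV was lower than failing RA on the log2 scale (-15.28 ± 0.69, adjusted p = 2e-05, edgeR).

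In the node, ENSRNOG00000009316 lay between the atria and varied more from library to library than in either of them. Healthy iSAN held 534.6, 45.5, 120.8 and 300.6 TPM and healthy sSAN 425.3, 9.77, 211.7 and 161.9, so that SB_0921 and ST_0921, of the same number, were the lowest of either part. Failing iSAN held 46.2, 43.4, 38.4 and 1.36 TPM and failing sSAN 265.3, 134.1, 51.05 and 12.6, with iSAN0508 and sSAN0508 the lowest. No node library reached the lowest RA library of its health state. Relative to failing RA the gene was lower in failing iSAN (-5.13 ± 0.92, adjusted p = 0.0065, edgeR) and in failing sSAN (-3.10 ± 0.75, adjusted p = 0.037), and relative to failing LA it was higher in both (8.48 ± 1.23 and 10.50 ± 1.15, adjusted p = 0.0038 and 0.0018). The sSAN to RA call was lost without any one of RA_0409, RA_0506, RA_0507, RA_0508, sSAN0506 or sSAN0507 (adjusted p from 0.051 to 0.079). It was also lost without the filter on low counts (adjusted p = 0.051). From healthy to failing hearts the level fell in iSAN (-2.96 ± 1.01, adjusted p = 0.045, edgeR), a call lost without iSAN0409, iSAN0506, iSAN0507, SB_0920, SB_1001 or SB_1002 (0.055 to 0.11), without the filter (0.09) and with limma on log2(TPM + 1) (0.14). In sSAN the difference of -0.93 ± 0.96 did not pass (adjusted p = 0.53).

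The second right-biased gene, ENSRNOG00000069899, had a pattern of exact zeros. Healthy RA held 9.69, 12.1, 10.4 and 9.21 TPM and all 4 healthy LA libraries were at 0. In failing atria it was at 0 in 3 LA and in 3 RA libraries, with 2.71 TPM in LA_0409 and 6.70 TPM in RA_0506. The same alternation stood in the node, where healthy sSAN held 0, 23.4, 7.82 and 0 TPM and 3 of 4 healthy iSAN libraries held 2.69, 18.5 and 13.6 TPM. All failing sSAN and failing LV libraries were at 0, and healthy LV held 4.69 and 7.53 TPM. Whether the quantification divided reads among near-identical sequences was not tested, and the level of this gene is uncertain. It passed no filter in the failing atria. The iSAN difference between health states (-4.09 ± 1.42, adjusted p = 0.048, edgeR) was lost with DESeq2 (0.17), limma on log2(TPM + 1) (0.21), no filter (0.081) and the fit of all 38 libraries (0.083), and without iSAN0409, iSAN0507, iSAN0508, SB_0920, SB_1001 or SB_1002 (0.055 to 0.12). Of the 132 genes, 7 (5.30%) were at exactly 0 in one library and at 3 TPM or more in another library of the same group, compared with 103 of 10311 other genes at the same healthy minimum (0.999%).

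**Figure D1:**
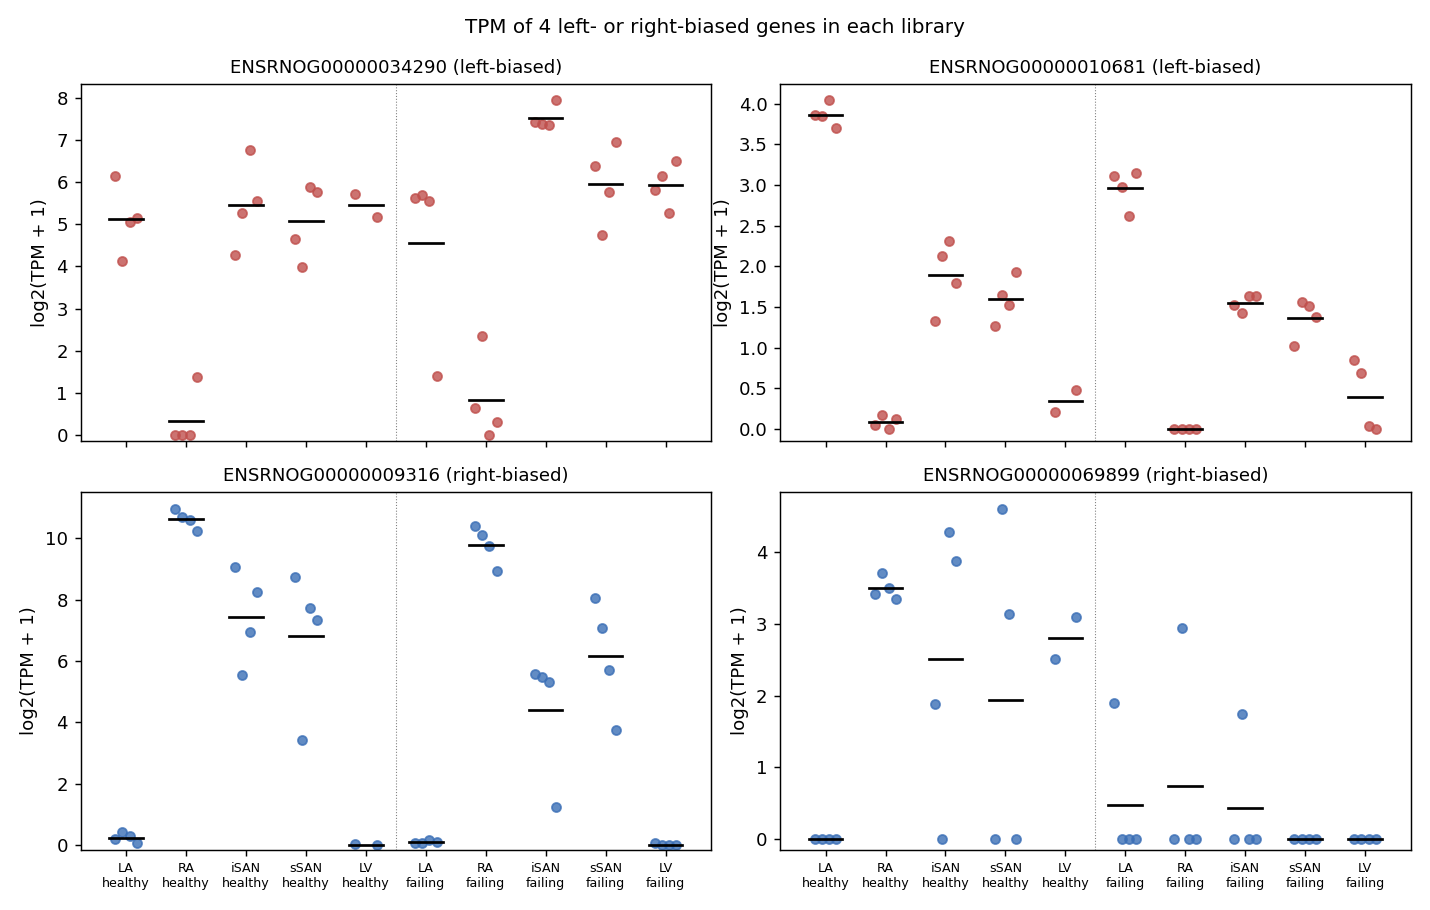
TPM of ENSRNOG00000034290, ENSRNOG00000010681, ENSRNOG00000009316 and ENSRNOG00000069899 in each library (points), as log2(TPM + 1) on the vertical axis, by region and health on the horizontal axis, with black bars for group means. The first gene is low in the right atrium and in LA_0508, the second is highest in LA, the third is high in RA and intermediate in both node parts, and the last moves between 0 and 23.4 TPM within healthy sSAN.

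The failing atria give the left-right contrast in libraries that the rule did not use. There, 5 left-biased genes were higher in LA and 9 right-biased genes were higher in RA, and 0 genes of either side passed in the opposite direction. These were 9.80% of the 51 left-biased and 13.0% of the 69 right-biased genes that passed the filter on low counts (4 and 8 did not), against 0.127% of all 14134 genes tested that were higher in LA and 0.184% that were higher in RA. The test was edgeR's quasi-likelihood test with an adjusted p under 0.05 after Benjamini-Hochberg adjustment over all genes tested. The median log2 difference of LA over RA was 0.67 over the left-biased genes tested, -0.78 over the right-biased genes tested and -0.003 over all genes. At an unadjusted p under 0.05 there were 24 left-biased, 45 right-biased and 1331 genes in all.

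The 14 genes that passed made up a large share of a short list, since only 44 genes of the whole table passed between the failing atria. The smallest of their differences was 1.06 on the log2 scale and the median size was 2.69. The 5 left-biased ones had failing LA means of 3.40 to 129 TPM against 0 to 60.6 in failing RA, and the 9 right-biased ones had failing RA means of 6.54 to 941 TPM against 0.0723 to 9.37 in failing LA. Of the 30 other genes that passed, 28 differed in the same direction in the healthy means, 26 had a healthy ratio under 2 and 19 lay under the healthy minimum of 3 TPM. The numbers were sensitive to single libraries. The left-biased count was 3 without LA_0506, RA_0409 or RA_0506, the right-biased count was 5 without LA_0409, RA_0409, RA_0506 or RA_0507, and the count over all genes lay between 10 and 30 whichever library was left out. DESeq2 called 19 left-biased and 32 right-biased genes, and the edgeR fit of all 38 libraries called 20 and 23, again with 0 in the opposite direction. The lists over all genes were longer too, with 368 of 14134 genes in DESeq2 and 269 of 15770 in that fit.

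Judged by TPM alone, the direction of the healthy asymmetry was widespread in the failing atria and its size was smaller. The 4 failing LA and 4 failing RA libraries did not overlap for 19 of 55 left-biased genes (34.5%) and 32 of 77 right-biased genes (41.6%), in each case in the healthy direction and for 0 genes in the other. Over the 10443 genes at the same healthy minimum the shares were 1.43% with LA higher and 1.4% with RA higher. The difference of means had the healthy direction for 48 left-biased and 66 right-biased genes and was turned round for 7 and 11. The median log2 ratio in the biased direction was 1.29 in healthy and 0.61 in failing atria for left-biased genes, and 1.25 and 0.67 for right-biased genes. Because the healthy values chose the genes for being extreme, a smaller value in other libraries follows in part from the choice, and this fall is a description. The failing ratio was under 50% of the healthy log2 ratio for 29 left-biased and 36 right-biased genes and above the healthy ratio for 4 and 14.

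**Figure D2:**
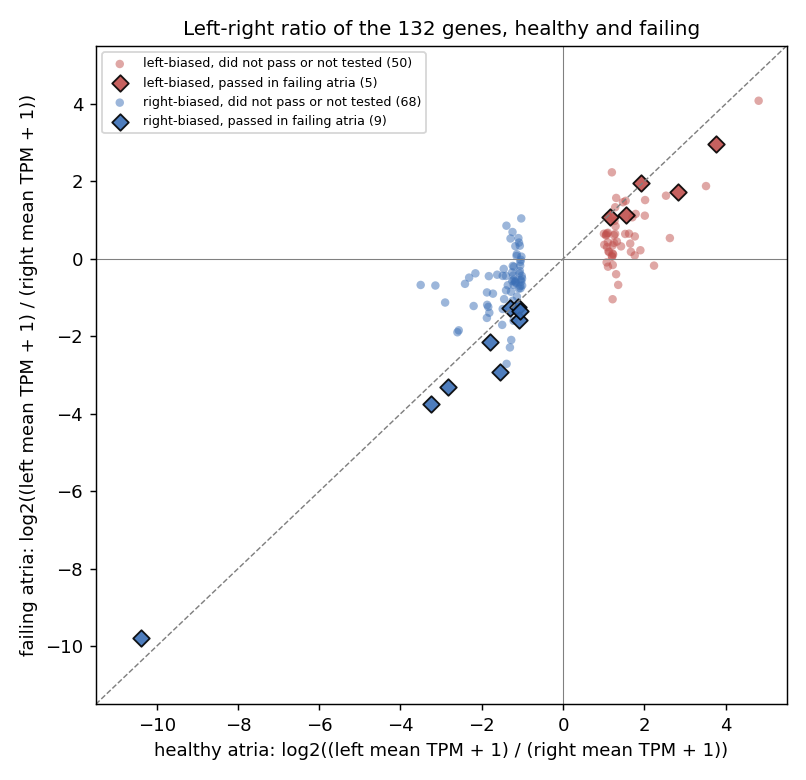
Log2 ratio of mean TPM + 1 in the left over the right atrium, in healthy hearts (horizontal axis, used by the rule) and failing hearts (vertical axis), 1 point per gene, with diamonds for the 5 left-biased and 9 right-biased genes that passed in failing atria and a dashed line of equal ratios. Most points lie nearer to 0 in failing than in healthy atria, and 7 left-biased and 11 right-biased genes lie across the zero line.

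Within each pair of same-numbered atria, the asymmetry was present in failing hearts and differed in size. The left-biased median of LA over RA was 0.74, 0.63, 0.37 and 0.66 from LA_0409 to LA_0508, with 47, 41, 42 and 45 of 55 genes higher in LA. The right-biased median of RA over LA was 0.96, 0.89, 0.68 and 0.45 in the same order, with 71, 62, 57 and 53 of 77 genes higher in RA. In healthy hearts the medians lay between 1.30 and 1.44 on the left and between 1.22 and 1.38 on the right. The median of LA over RA over all genes at the minimum was -0.17 in LA_0409 and 0.14 in LA_0508, a shift in the same order as the right-biased medians, and its part in them was not tested.

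Within LA, the median left-biased gene was further below its healthy level in failing hearts than the median of all genes, whereas in RA the right-biased median lay near that of all genes. The median log2 change of failing over healthy TPM was -0.67 for left-biased genes in LA and 0.08 in RA, and for right-biased genes it was -0.31 in RA and 0.30 in LA. All genes at the minimum had medians of -0.20 in LA and -0.24 in RA. In LA, 31 left-biased genes (56.4%) had all failing libraries below all healthy ones and 7 (12.7%) had them above, against 36.9% and 12.4% of all 10665 genes at the minimum in LA. In RA, 20 right-biased genes (25.97%) had them below and 10 (13.0%) above, against 38.5% and 11.9% of all 10570 genes. In the opposite atrium more genes rose. In LA, 24 right-biased genes (31.2%) had all failing libraries above all healthy ones and 11 (14.3%) had them below. In RA, 15 left-biased genes (27.3%) had them above and 10 (18.2%) below. These values use the healthy libraries that chose the genes and carry no test. A fall in the higher atrium and a rise in the lower one follow in part from that choice.

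Abundant genes set the summed levels. A single right-biased gene supplied 62.3% of the summed right-biased TPM in healthy RA, at 6228 ± 285 TPM (SD, n = 4) against 833 ± 384 in healthy LA. It stood at 10361 ± 2930 TPM in failing RA and 4746 ± 1691 in failing LA, at 3214 to 5714 in the group means of both node parts and at 14.5 TPM in healthy LV. In failing hearts its left atrial libraries held 2952 to 6991 TPM and all lay above the healthy left atrial range of 367 to 1165. A single left-biased gene supplied 91.6% of the summed left-biased TPM in healthy LV, at 7796 TPM, while it held 43.5 ± 6.05 TPM in healthy LA and 13.4 ± 2.63 in healthy RA. Its ventricular level was thus over 100 times its left atrial level, and its atrial values ranged from 58.7 to 79.8 TPM in failing LA and from 23.3 to 64.2 in failing RA, which overlapped. Because of such genes the levels of the groups below are given as counts of genes and as medians.

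The inferior node of healthy hearts held levels between the atria for most of these genes and lay on the side of the higher atrium for both sets. Of the left-biased genes, 34 were nearer to LA and 21 nearer to RA, and of the right-biased genes 55 were nearer to RA and 22 nearer to LA, on the log2(TPM + 1) scale. Its mean lay between the 2 atrial means for 36 left-biased and 55 right-biased genes, above both for 15 and 18, and below both for 4 and 4. The superior node of healthy hearts was nearer to LA for 24 left-biased and 49 right-biased genes, and nearer to RA for 31 and 28. Its all-gene median lay 0.34 below LA and 0.38 below RA on this unscaled TPM scale, whereas that of iSAN lay 0.005 and 0.043 below, and the part of this shift in the counts was not tested. The atrial values in these counts are those that chose the genes, so the counts are a description.

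The left ventricle of healthy hearts was the region where right-biased genes were lowest. It was nearer to LA for 68 of 77 right-biased genes, below both atria for 55 and above both for 3. Left-biased genes were more mixed there, with 19 below both atria, 25 between and 11 above both. Healthy LV lay at least 2-fold below the higher atrium for 61 right-biased and 30 left-biased genes. The all-gene median of healthy LV was 0.66 below LA and 0.71 below RA on the same unscaled scale, and its part in these counts was not tested.

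The chosen genes were not confined to the atria that named them. Among the 5 healthy regions, the highest mean stood in LA for 30 of 55 left-biased genes, in iSAN for 14, in LV for 9 and in sSAN for 2. For right-biased genes it stood in RA for 56 of 77, in iSAN for 13, in sSAN for 6 and in LV for 2. In failing hearts iSAN held the highest mean for 30 left-biased genes and LA for 15, while RA held it for 39 right-biased genes and iSAN for 23. The all-gene median of failing iSAN was 0.28 above failing LA and 0.30 above failing RA on the same scale, and its part in these counts was not tested.

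**Figure D3:**
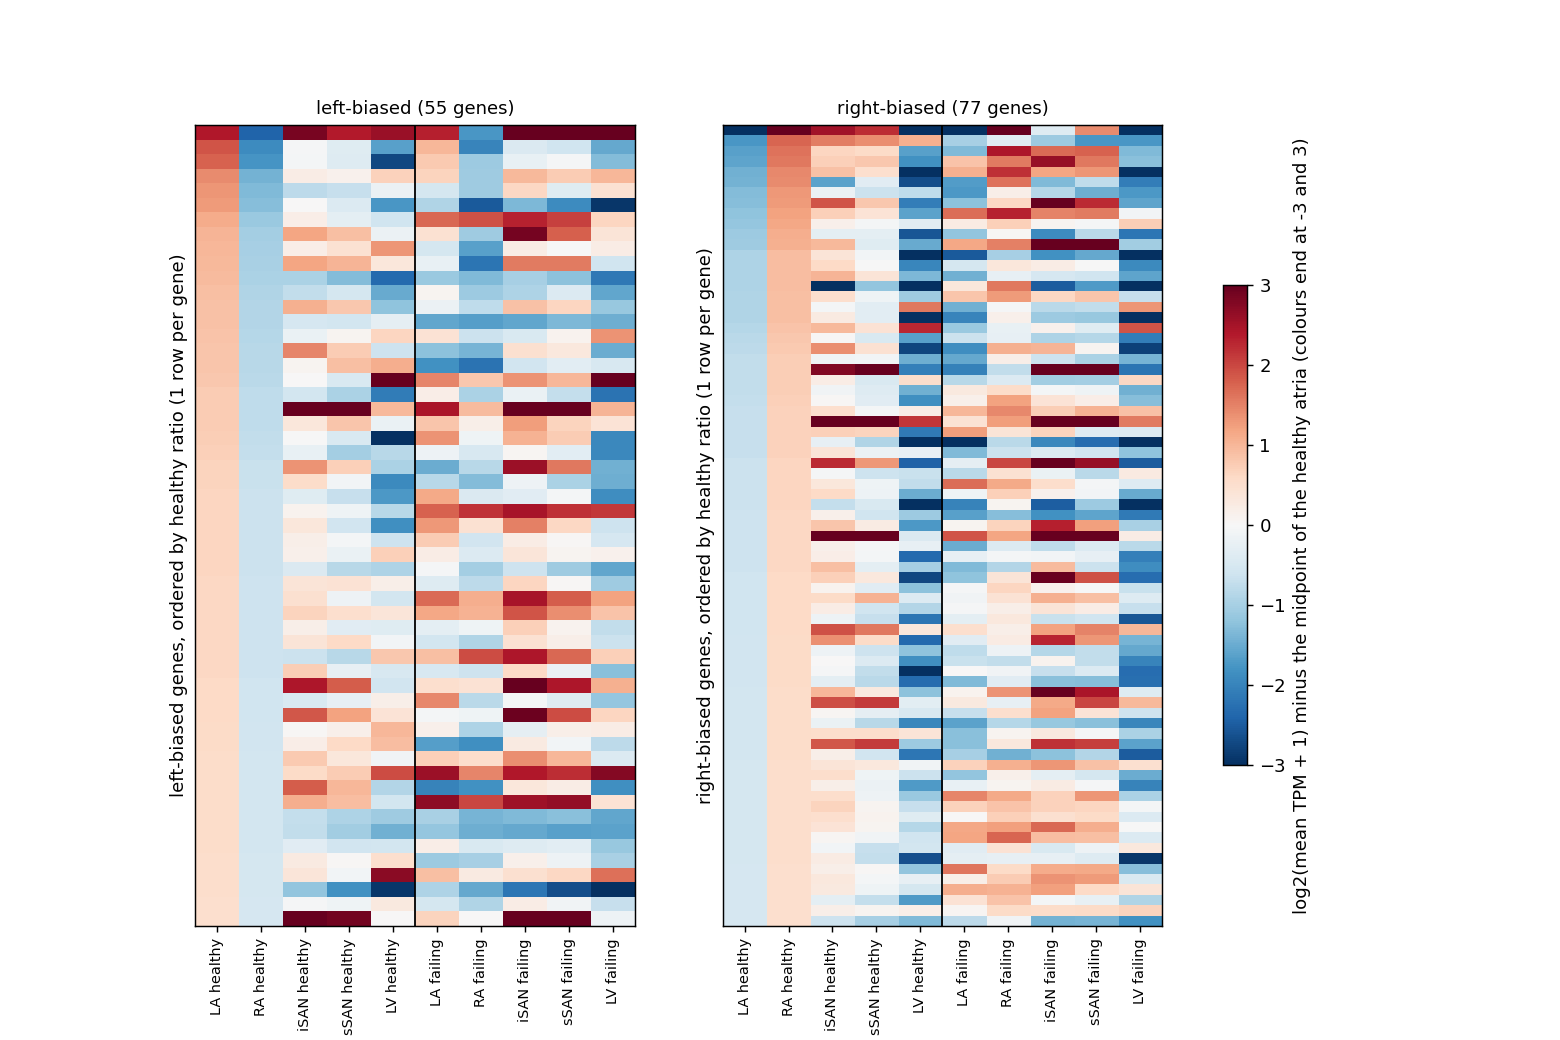
Mean level of the 55 left-biased and 77 right-biased genes in each region and health state (columns), 1 row per gene ordered by healthy ratio, coloured by log2(mean TPM + 1) minus the midpoint of the healthy LA and RA values. The first 2 columns follow from the rule, the healthy LV column is below the midpoint for most right-biased genes, and single genes reach the end of the colour scale in the node or the ventricle.

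**Figure D4:**
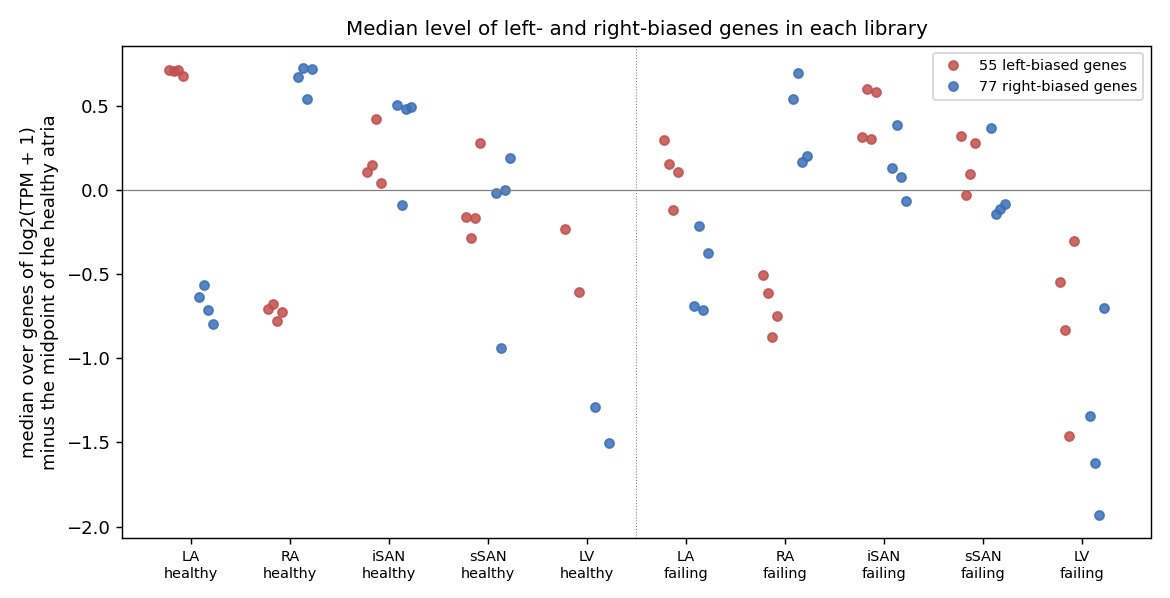
Median over the 55 left-biased (red) and 77 right-biased (blue) genes of log2(TPM + 1) minus the midpoint of the healthy atria, 1 point per library and set, by region and health. Failing LA libraries lie between -0.12 and 0.30 for left-biased genes and failing RA libraries between -0.87 and -0.51, without overlap, and the right-biased medians of the failing atria do not overlap either.

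The library medians show which samples stood apart. In healthy iSAN, the right-biased median was between 0.48 and 0.51 above the midpoint in 3 libraries and at -0.09 in SB_0921. In healthy sSAN it was -0.94 in ST_0921 and between -0.02 and 0.19 in the others. The low libraries of both parts thus share a number, while RA_0921, at 0.72, was not low. In failing hearts the left-biased medians of iSAN lay between 0.30 and 0.60, and those of LV between -1.46 in LV_0507 and -0.30 in LV_0508.

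Tests of the failing node against the failing atria ask how the node stands between the 2 sides in libraries the rule did not use. The comparisons with LA and with RA share the node libraries and are given side by side. Left-biased genes were chosen for a lower level in healthy RA than in healthy LA, and right-biased genes for a higher one. Levels above or below a failing atrium in the matching direction follow in part from that choice, in the node and in the ventricle. TMM scaling in edgeR centres each comparison, with all-gene medians between -0.02 and 0.00, so the values here are relative to that centre. On the unscaled TPM scale the all-gene median was 0.28 above LA and 0.30 above RA in failing iSAN, 0.01 and 0.02 above in failing sSAN, and 0.82 and 0.80 below in failing LV.

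In failing iSAN, 26 left-biased genes were higher than in failing RA and 0 were lower, of 54 tested. That is 48.1% of those tested, against 11.6% of all 14204 genes tested that were higher, and the median over the left-biased genes was 0.80. Against failing LA the left-biased genes went both ways, with 11 of 54 higher and 10 lower and a median of 0.22, where 8.45% and 3.41% of all 14327 genes passed. Right-biased genes fell short of failing RA for 25 of 72 and exceeded it for 10, with a median of -0.80, against 7.37% of all genes that were lower. Against failing LA, 18 of 70 right-biased genes were higher and 5 lower, with a median of 0.28. The right-biased genes called below RA and those called above LA were mostly different genes, although ENSRNOG00000009316 passed in both comparisons. By mean log2(TPM + 1), failing iSAN lay between the failing atria for 25 of 77 right-biased genes, above both for 30 and below both for 22. An intermediate level was thus not the rule for this set. With limma on unscaled log2(TPM + 1), the left-biased split against LA was 17 higher and 4 lower and the right-biased split 25 and 3. Several counts rested on single libraries. The 10 left-biased genes lower than LA were 6 without iSAN0506 or iSAN0507. Over all genes the count against LA moved too, from 1699 to 1009 without iSAN0506, 1121 without iSAN0507 and 2206 without iSAN0409. The 5 right-biased genes lower than LA were 11 without iSAN0409 and 2 without iSAN0506, iSAN0508 or LA_0506. The 10 right-biased genes higher than RA were 6 without RA_0507, and a single left-biased gene was lower than RA without RA_0508. With the title number as a block, 1 left-biased gene was also lower than RA.

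In the failing superior node, the left-biased genes that passed were higher than in the right atrium and most right-biased ones were lower. Against failing RA, 19 of 53 left-biased genes were higher and 0 lower, with a median of 0.94, and 17 of 71 right-biased genes were lower and 6 higher, with a median of -0.52. The shares over all 14238 genes were 6.11% higher and 2.17% lower. Same-numbered sSAN and RA libraries varied together, and with the number as a block the count of chosen genes called rose from 42 to 68, with 28 left-biased genes higher, 1 lower, 7 right-biased genes higher and 32 lower. Over all 14238 genes the block raised the count from 1179 to 2838, so the rise was not particular to the chosen genes. Against failing LA, 10 of 53 left-biased genes were higher and 5 lower, with a median of 0.10. Of 69 right-biased genes, 16 were higher than failing LA and 1 was lower, with a median of 0.54, where 4.25% and 1.55% of all 14322 genes passed. Limma on unscaled values gave 11 left-biased genes higher and 3 lower than LA. The 17 right-biased genes lower than RA were 7 to 11 without any one of the 8 libraries but sSAN0409, where they were 18. Without LA_0506 the count of chosen genes called against LA fell from 32 to 19, with 6 left-biased higher, 2 lower and 10 right-biased higher. Over all genes it fell from 830 to 359. Left-biased genes higher than LA were also 6 without sSAN0508, and those lower were 3 without LA_0409 or sSAN0506. The 1 right-biased gene lower than LA was joined by others to give 4 without sSAN0409 and 2 without sSAN0506.

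In the failing left ventricle, most right-biased genes that passed were lower than in either atrium. Of 69 tested, 32 were lower than in failing RA and 5 higher, with a median of -1.45, against 4.56% and 5.43% of all 13689 genes. Of 65 tested against failing LA, 18 were lower and 8 higher, with a median of -0.65, against 4.91% and 5.86% of all 13830 genes. Left-biased genes were higher than failing RA for 16 of 49 and lower for 3, with a median of 0.71, and against failing LA 8 of 51 were higher and 10 lower, with a median of 0.16. The counts differed under limma on unscaled values, which changes the test as well as the scaling. With DESeq2 size factors in edgeR, 16 left-biased genes were higher and 3 lower than RA, and 5 right-biased genes higher and 32 lower. Against LA the same setting gave 8 left-biased genes higher and 10 lower, and 9 right-biased genes higher and 18 lower. With limma on unscaled log2(TPM + 1), 8 left-biased genes were higher and 5 lower than RA, 1 was higher and 15 lower than LA, and the right-biased genes were 2 higher and 47 lower than RA and 3 and 31 than LA. Without LA_0506 the count of chosen genes called against LA fell from 44 to 21, with 1 left-biased gene higher, 4 lower, 5 right-biased higher and 11 lower. Without LV_0506 it fell to 27, with 4 left-biased genes higher, 5 lower and 10 right-biased lower. Over all genes the count fell from 1490 to 602 without LA_0506 and to 673 without LV_0506. The 8 left-biased genes higher than LA were 4 without LA_0507 or LA_0508 and 5 without LV_0409, and the 10 lower ones were 4 without LA_0409, 6 without LA_0508 and 5 without LV_0409. Of the 3 left-biased genes lower than RA, 0 were called without LV_0409, LV_0506, RA_0409, RA_0507 or RA_0508 and 1 without RA_0506. The 5 right-biased genes higher than RA were 3 without RA_0409 or RA_0507.

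**Figure D5:**
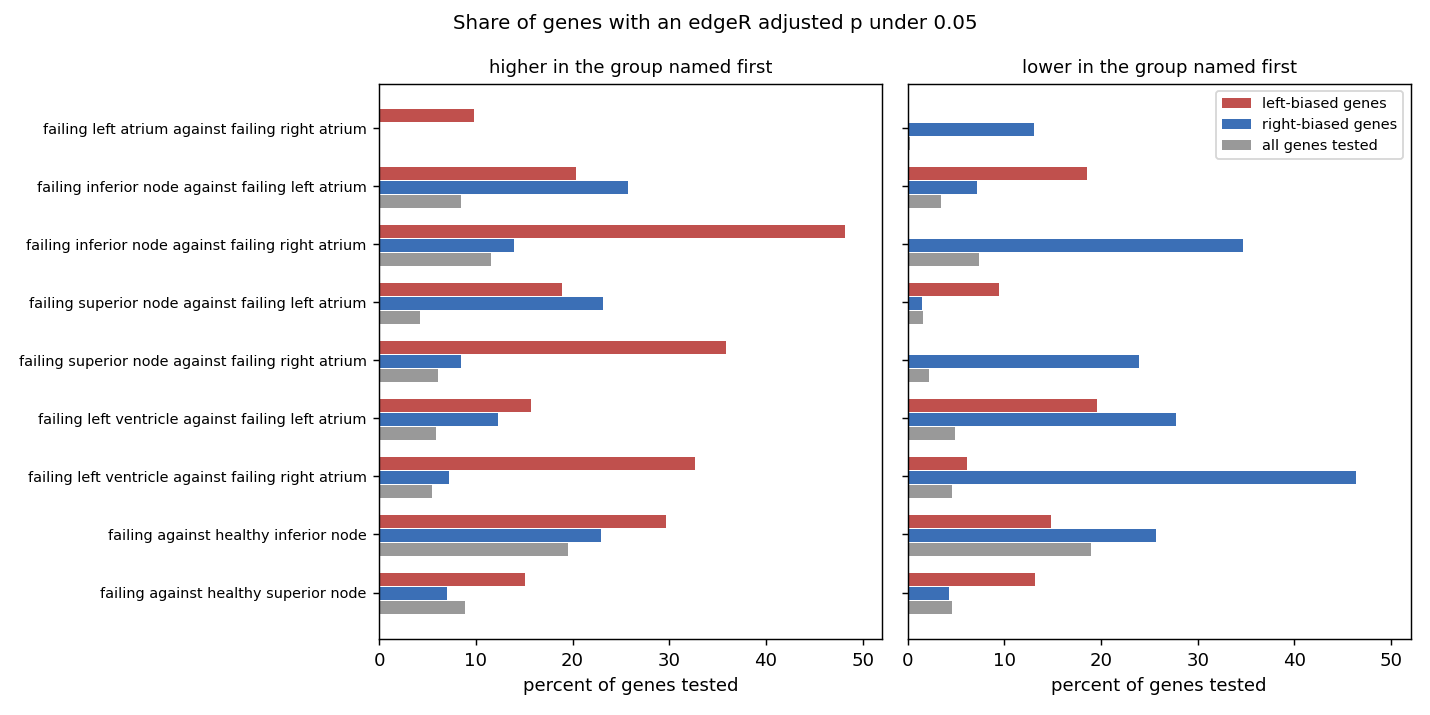
Percent of genes tested with an adjusted p under 0.05 in edgeR, higher (left panel) or lower (right panel) in the group named first, for left-biased genes (red), right-biased genes (blue) and all genes tested (grey). Left-biased genes that were higher than in failing RA made up 48.1% of those tested in iSAN, and right-biased genes that were lower than in failing RA made up 46.4% in LV.

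Between failing and healthy node, the chosen genes changed in both directions and about as often as other genes in the inferior part. In iSAN, 16 of 54 left-biased genes rose and 8 fell, and 17 of 74 right-biased genes rose and 19 fell, against 19.5% of all 14379 genes that rose and 19% that fell. The left-biased shares were 29.6% and 14.8% and the right-biased shares 23.0% and 25.7%, with medians of 0.13 and -0.12 beside 0.01 over all genes. The right-biased genes that fell were 12 without iSAN0507 or SB_1002, and limma on unscaled values gave 10 that rose and 17 that fell.

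In sSAN, 8 of 53 left-biased genes rose and 7 fell, and 5 of 71 right-biased genes rose and 3 fell, against 8.92% and 4.56% of all 14351 genes. The medians were 0.11 and -0.08. With limma on unscaled values, 7 left-biased genes rose and 3 fell. The sum of 23 genes was 10 without ST_0920 or ST_1002 and 14 without sSAN0507 or sSAN0508. The count over all genes fell as well, from 1934 to 368 without ST_0920 and 629 without ST_1002. It was 645 without sSAN0507 and 632 without sSAN0508. Left-biased genes that rose were 14 without sSAN0506 and 5 without sSAN0508, ST_0920 or ST_1002, and those that fell were 4 without sSAN0507, 3 without ST_0920 and 2 without ST_1002. Right-biased genes that rose were 9 without sSAN0506, 3 without sSAN0507 or sSAN0508, 1 without ST_0920 and 2 without ST_1002. Those that fell were 5 without sSAN0506 or ST_0921 and 1 without sSAN0507, sSAN0508, ST_0920, ST_1001 or ST_1002. Of the chosen genes, 19 changed in the same direction in both node parts and 0 in opposite directions, which is 31.7% of the 60 called in iSAN and 82.6% of the 23 called in sSAN. Over all 14154 genes tested in both parts, 1670 changed in the same direction in both (11.8%, beside 15.3% of the 124 chosen genes tested in both) and 0 in opposite directions, which is 30.2% of all genes called in iSAN and 86.3% of those called in sSAN. The chosen genes were thus close to all genes in this respect. The node parts carry the same numbers and are not independent.

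In the left ventricle, 0 of 52 left-biased and 0 of 60 right-biased genes passed between failing and healthy hearts in edgeR, as did 0% of all 13670 genes in either direction. At an unadjusted p under 0.05 there were 21 left-biased and 21 right-biased genes and 1510 genes in all. DESeq2 called 16 of the chosen genes, limma on log2(TPM + 1) 1, and the edgeR fit of all 38 libraries 30. Over all genes, DESeq2 called 356 of 13670, limma 6 of 13670 and the joint fit 3009 of 15770. With 2 healthy libraries, and 17 right-biased genes that did not pass the filter on low counts, this comparison is the least precise one. ENSRNOG00000034290 differed by 0.96 ± 0.34 (adjusted p = 0.42) and ENSRNOG00000069899 by -8.07 ± 1.04 (adjusted p = 0.29) in edgeR. The second value has failing LV at 0 throughout, and as a bound on the floor of 3 counts per library the gene was at least 11.6-fold lower. It passed with DESeq2 (adjusted p = 9e-05) and limma (0.0028).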

How the data were processed

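Per the submitters' processing notes, Trimmomatic 0.39 and kallisto 0.48.0 were used. Not given in the sources used here were the genome build, the annotation and the gene-summing tool. The authors deposited estimated counts and TPM for 24057 Ensembl gene IDs in 38 libraries, with totals of 17406473 to 27355777 estimated counts. These deposited counts were scaled for length before deposit: over 13474 genes above 0 throughout, log count minus log TPM split into gene and library terms within 5.8e-13. The deposited transcript tables were not used. The reference table (assembly GRCr8) matched 0 of the IDs, so names, marker lists, gene lists and sequences could not be used. Named genes are those with the largest healthy ratios, limited to 2 a side. The chosen genes, lists and tests were set with earlier results of these data known.

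Estimated counts were rounded, filtered with filterByExpr (count minimum 10, total minimum 15), scaled by TMM and tested on the compared groups alone in edgeR 4.0.16 (R 4.3.3), by its robust quasi-likelihood test (Benjamini-Hochberg, threshold 0.05). A log2 difference is the first group named minus the second, and its SE comes from the test statistic. Alternatives were DESeq2 1.42.0, its size factors in edgeR, no filter, limma 3.58.1 on log2(TPM + 1) and log2(TPM + 0.1), a joint fit of the 38 libraries, a replicate block by title number, other membership rules and each library left out. The steps were tested on simulated data.

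Same-numbered libraries deviated together from their group means (every correlation over 0.1) between failing RA and failing iSAN (0.30 to 0.38), sSAN (0.41 to 0.45) and LV (0.22 to 0.36), so the numbers pair those libraries. Not every correlation was over 0.1 between failing LA and RA (-0.08 to 0.36). The same held between failing LA and iSAN (0 to 0.46), sSAN (-0.12 to 0.31) or LV (0.06 to 0.38). This does not show that those libraries are unpaired. The main tests used no block in any comparison, also where the numbers pair the libraries.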

Additional observations from a re-analysis of the deposited data

Results flagged for a closer look

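Among 39 groups of 4 libraries examined, comprising the summed TPM of either set and the TPM of the named genes, 6 held a library far from the other 3 (a gap to the nearest that is wide against the range, by Dixon's 95% critical value). Chance alone gives about 1 in 20 groups when values are normally distributed and groups are independent. These groups hold raw TPM, some with exact zeros, and share libraries, so that rate is only a rough guide here.

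The summed TPM of right-biased genes was 3173 in the healthy superior node library ST_0921, where the others held 6060 to 6426. In failing sSAN0506 the same sum was 5499, where the others held 8593 to 8736. ENSRNOG00000034290 stood apart in 3 groups: it was at 1.63 TPM in failing LA_0508 (others 45.9 to 50.5), at 4.07 TPM in failing RA_0506 (others 0 to 0.549) and at 245.3 TPM in failing iSAN0508 (others 162.5 to 170.5). ENSRNOG00000069899 was at 6.70 TPM in failing RA_0506 and at 0 in the other 3 failing RA libraries.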

How the results depend on the processing

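The number of chosen genes depended on the rule. Under the ratio 1.5 there were 161 left-biased and 197 right-biased genes, under 3 there were 18 and 21, with a minimum mean of 10 TPM 31 and 50, with 1 TPM 66 and 93, with 0.1 TPM added in place of 1 TPM 73 and 95, with CPM of the estimated counts 73 and 87 (49 and 64 shared with the main sets) and with TMM-rescaled TPM 57 and 72. The 51 genes whose failing atria did not overlap became 78, 20 and 31 under the ratio 1.5, the ratio 3 and the minimum of 10 TPM. Without single healthy libraries there were 56 to 61 left-biased and 74 to 82 right-biased genes. Without single healthy or failing libraries, 47 to 60 had no overlap in failing atria.

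Between failing LA and RA, DESeq2 gave 19 and 32 genes, limma on log2(TPM + 1) 9 left-biased genes, and the fit of all 38 libraries 20 and 23. Over all genes these settings called 368, 59 and 269, where the main test called 44. The fit of all 38 libraries gave 73 genes for LV against LA, DESeq2 39 for the health of sSAN, and for the health of LV DESeq2 gave 16, limma 1 under either pseudocount and the fit of all libraries 30. Over all genes, the fit of all libraries called 5295 for LV against LA and DESeq2 3293 for the health of sSAN. For the health of LV, DESeq2 called 356 of all genes and the fit of all libraries 3009. The replicate block, which pairs libraries by number, gave 68 genes for sSAN against RA in place of 42 and changed no other total of chosen genes by over 1.5 times. Over all genes it gave 2838 in place of 1179 for sSAN against RA. By side, the block also gave 2 in place of 1 right-biased gene lower in sSAN than LA, and 1 in place of 0 left-biased genes lower in iSAN than RA. No block was possible between health states, which share no numbers.

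Leaving out 1 library gave 3 to 7 left-biased and 5 to 9 right-biased genes between the failing atria, 31 to 51 genes for iSAN against LA, 47 to 64 against RA, 19 to 33 for sSAN against LA, 29 to 43 against RA, 21 to 51 for LV against LA, 43 to 60 against RA, and 50 to 69, 10 to 34 and 0 to 1 for the health of iSAN, sSAN and LV. Of the values of named genes under alternatives, 374 kept direction and call, 34 lost the call, 10 gained it and 1 turned: ENSRNOG00000010681 in failing against healthy LV was -0.24 with limma on log2(TPM + 0.1). The cause was not tested. Genes at a few TPM carry few counts, which limits the precision of their ratios.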

Other observations

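Turned round, the rule chose partly different genes in the failing atria. There 62 genes met it with LA higher, of which 12 were among the 55 left-biased genes, and 48 met it with RA higher, of which 20 were among the 77 right-biased genes. The genes chosen in failing atria with LA higher had a median log2 ratio of 1.46 there and 0.26 in healthy atria, with 48 of 62 in the same direction. Those with RA higher had medians of 1.36 in failing and 1.04 in healthy atria, with 44 of 48 in the same direction. A ratio in the libraries that chose a gene is raised by the choice in either case. The difference between the left and the right set was not tested.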
